A study of Mus musculus with 22 samples.

Results

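The RCAM libraries are bulk RNA-seq libraries of macrophages sorted from the renal capsule, the thin connective tissue sheath around the kidney. They were chosen by their titles, which begin with RCAMs, and they number 8 of the 22 libraries of the series: 4 labelled young and 4 labelled aged. The other libraries are 6 of whole renal capsule (3 young and 3 aged), 4 of sorted capsule macrophages and 4 of kidney macrophages, both without an age label. All samples are from Mus musculus and the labels give the treatment as None; they give no strain, genotype, sex, age in weeks or sort gate. The characteristics of the RCAM samples name the cell type as whole tissue, whereas the design text of the series describes dissected capsules from mice of both ages that were sorted for macrophages by flow cytometry (FACS). Nothing in the labels says that the 4 libraries of a group came from separate animals, so the p-values below measure only the spread between these libraries, which may be technical.

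Resident macrophages of connective tissue sheaths lie beside vessels, nerves and fibroblasts, take up debris and pathogens, and persist for long periods, in part by self-renewal. A widely described type in such sheaths carries Lyve1, Folr2, Timd4 and Cd163 on its surface. Interleukin-4 and interleukin-13, signalling through STAT6, turn on a set of genes called alternative activation, with Retnla and Mgl2 as standard mouse markers. Macrophages that take up lipid-rich debris turn on another set, led by Trem2, Gpnmb, Spp1 and Fabp4.

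The deposited gene counts summed to between 44957541 and 54421764 per RCAM library. Defining macrophage markers were high in every RCAM library: the summed level of 9 of them (Csf1r, Adgre1, Cd68, Fcgr1, Mertk, C1qa, C1qb, C1qc and Lyz2) was 35166 to 37671 counts scaled to 1e6 of the library total (CPM) in the young and 35162 to 39290 CPM in the aged libraries. The data therefore go with the sort named in the design text and not with the whole tissue label. None of the 9 was called higher or lower with age. Defining markers of fibroblasts (8 genes) summed to 544 to 748 CPM in the young and 929 to 2646 CPM in the aged libraries, 4 of the 8 being called higher (3.43% of all genes tested were). Endothelial (7.78 to 12.4 CPM young, 14.3 to 20.6 CPM aged), smooth muscle or pericyte (1.3 to 2.76 and 4.31 to 7.32 CPM) and T cell markers (0.1 to 0.625 and 0.367 to 1.39 CPM) were low in all libraries. In the following values the CPM of a single gene in an RCAM library is scaled by TMM-adjusted library size. Summed list levels, and CPM in whole capsule and sorted capsule macrophages, are scaled by the library total. A log2 fold change is aged minus young from edgeR's quasi-likelihood fit, with p adjusted over all genes tested by the Benjamini-Hochberg method.

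A wider list of 30 fibroblast genes put the 4 aged libraries into an order. Its summed level was 1856, 1711, 1961 and 1905 CPM in young replicates 1 to 4, and 3247, 2666, 5577 and 6070 CPM in aged replicates 1 to 4. All aged values lay above all young values, and aged replicates 3 and 4 lay apart from aged replicates 1 and 2. In whole capsule the same list summed to 25143 to 35509 CPM in the young and 24683 to 35836 CPM in the aged libraries. The first principal component of the 500 most variable genes (66.9% of their variance) ran from -15.62 to -11.03 in the young libraries, 10.21 and 7.75 in aged replicates 1 and 2, and 15.92 and 17.98 in aged replicates 3 and 4. The summed level of 20 macrophage genes was alike in both groups, at 47777 to 50640 CPM in the young and 48103 to 53404 CPM in the aged libraries.

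**Figure D1:**
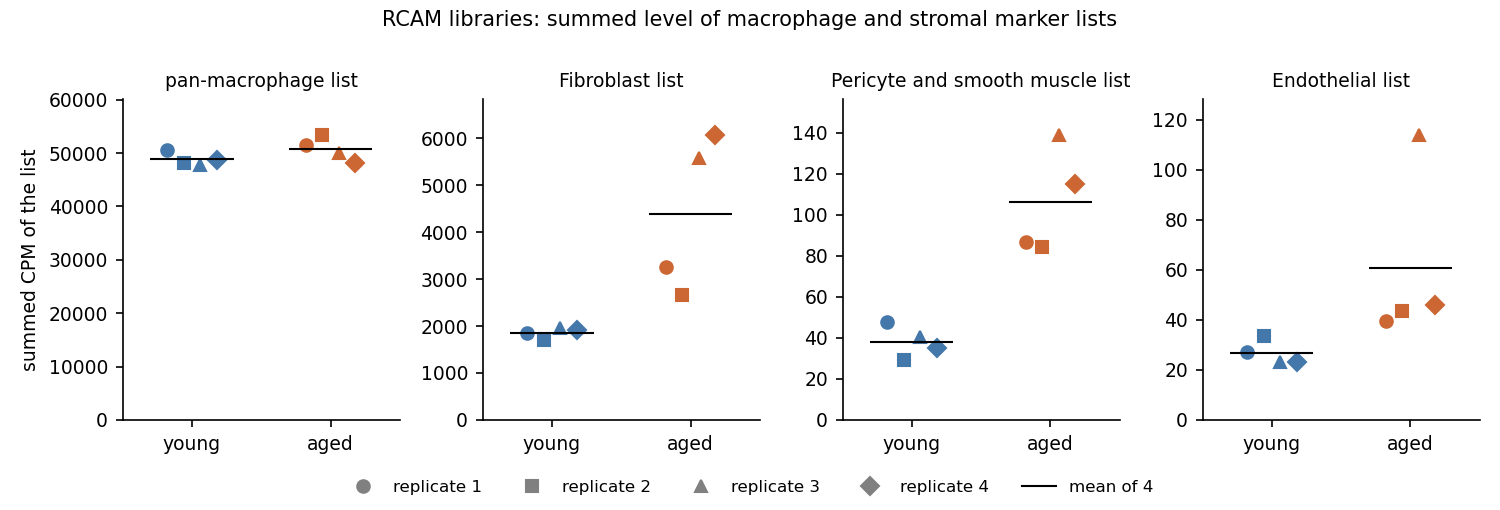
Summed CPM of 4 marker lists in each RCAM library (points, shape by replicate; horizontal line, mean of 4), for young and aged libraries. Fibroblast genes reached 5577 and 6070 CPM in aged replicates 3 and 4 against 3247 and 2666 CPM in aged replicates 1 and 2, while macrophage genes stayed between 47777 and 53404 CPM in all 8 libraries.

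Of 15182 genes tested in the 8 libraries, 729 (4.8%) passed an adjusted p of 0.05, 520 higher (3.43%) and 209 lower (1.38%) in the aged libraries. The higher genes had a median log2 fold change of 1.51 and 377 of them were at least 1, whereas the lower genes had a median of -0.56 and 34 of them fell by 1 or more on the log2 scale. The aged libraries lay wholly above the young in 1039 genes (6.84%) and wholly below in 730 (4.81%), among them 510 of the 520 higher and 205 of the 209 lower genes. Leaving out 1 library at a time gave 340 to 497 higher and 98 to 153 lower genes. The higher count moved by over 1.5 times without aged replicate 4 (340 genes). The lower count did so without young replicate 1 (139), 2 (122) or 4 (98) and without aged replicate 1 (130), 2 (132) or 4 (114).

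The next comparison asked which changes stay when aged replicates 3 and 4, richest in fibroblast transcripts, are left out. Because this pair was chosen by its fibroblast transcripts, smaller fold changes of fibroblast and other stromal genes without it follow from the choice and are given below as a description. In the fit of 4 young against 2 aged libraries, 172 of 16025 genes were called higher (1.07%) and 51 lower (0.318%). Of the 520 higher genes 167 (32.1%) were called again, and of the 209 lower genes 43 (20.6%). These are termed kept below, and the others lost. A lost gene did not pass the adjusted threshold, but all 520 higher and all 209 lower genes had the same sign without the pair. Of these, 519 higher and 209 lower genes had an unadjusted p under 0.05 in edgeR. Both fits use the same young libraries and aged replicates 1 and 2, so they are not independent. The median log2 fold change of the higher genes went from 1.51 to 1.21, and that of the lower genes from -0.56 to -0.58. A total of 71 higher genes and 0 lower genes shrank by over 1.5 times (as a fold). Leaving out aged replicates 1 and 2 in place of 3 and 4 kept 313 higher genes (60.2%) and 43 lower genes (20.6%), with 9 higher genes and 1 lower gene shrinking by over 1.5 times and a median of the higher genes of 1.70. Both reduced fits have 2 aged libraries, so each has less power than the fit of 8. The kept higher genes were 31 without aged replicate 1, 36 without aged replicate 2 and 74 without young replicate 4, and 115 to 169 without another library; the kept lower genes were 25, 20 and 9 without young replicate 1, 2 or 4, 3 and 7 without aged replicate 1 or 2, and 33 to 46 without another library.

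The genes were then divided by where they are expressed, using the whole capsule and sorted capsule macrophage libraries of the same series. A gene was put on the tissue side when its mean CPM (offset 0.5) was at least 4 times higher in whole capsule, and on the macrophage side when it was at least 4 times higher in capsule macrophages. The whole capsule mean was taken over young and aged libraries together. A rise with age in whole capsule therefore moves a gene towards the tissue side. The tissue side held 301 of the 520 higher genes (57.9%), against 16.8% of all genes tested. Its median log2 fold change went from 1.84 to 1.43 without aged replicates 3 and 4, and 98 of the 301 were kept. The 180 higher genes on neither side had a median of 0.95 in both fits, with 55 kept. On the macrophage side, 39 higher genes (7.5%, against 6.98% of all genes) had medians of 0.74 and 0.67, with 14 kept. Lower genes lay mostly elsewhere: 10 on the tissue side (4.78%), 137 on neither and 62 on the macrophage side (29.7%), where the median was -0.67 in all 8 libraries and -0.65 without the pair. Fewer cells of a type and less RNA per cell cannot be told apart in bulk libraries. The part of fibroblast transcripts in the higher genes was not tested.

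**Figure D2:**
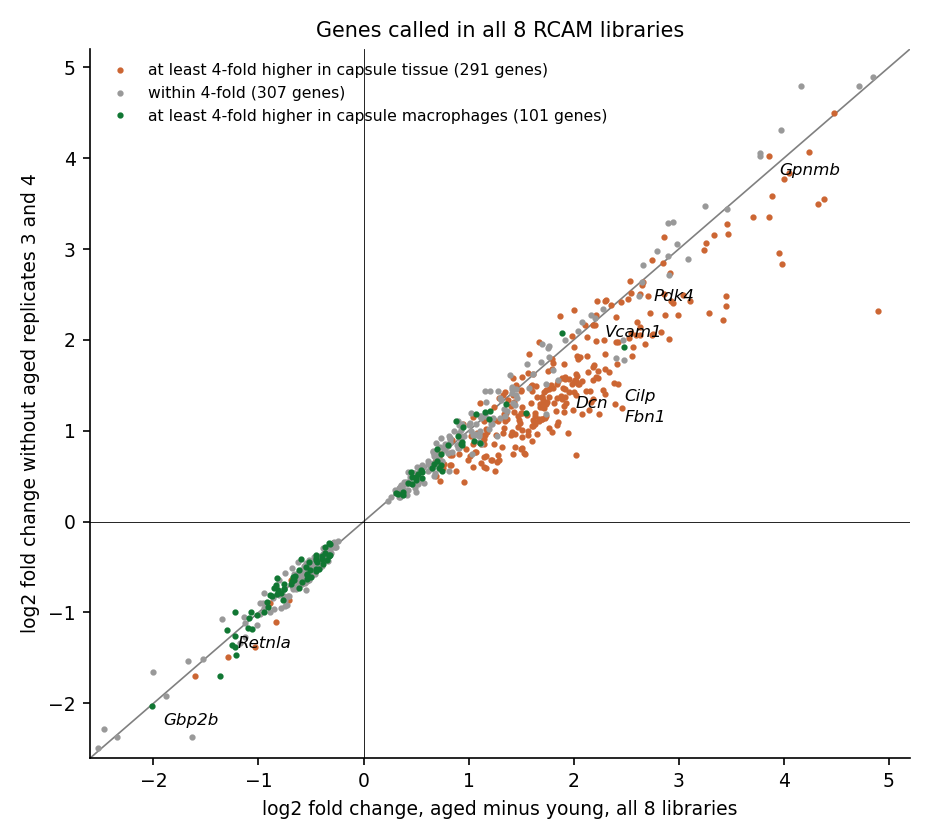
Log2 fold change (aged minus young) of the genes called in all 8 RCAM libraries, in the fit of 8 (x axis) and without aged replicates 3 and 4 (y axis); colour gives the expression side and the diagonal marks equal values. Of 729 called genes 699 lie within the axes and 30 outside; tissue-side genes lie mostly below the diagonal (median 1.84 on x, 1.43 on y), and lower genes lie along it (median -0.56 and -0.58). The pair left out was chosen by its fibroblast transcripts.

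Markers of alternative activation were among the genes that fell. Of 19 genes tested on this list 4 fell (21.1%, against 1.38% of all genes tested) and 1 rose (5.26%, against 3.43%); 3 of the 4 were kept, where 0.318% of all genes were called lower without the pair. The shares of all genes called, 3.43% higher and 1.38% lower in all 8 libraries, are the background to each list count that follows. The list's median was -0.17, against -0.01 over all genes tested, so the fall was in a few members and not in the list as a whole. Retnla (chr16:48842551-48844461, + strand, GRCm38), a secreted resistin-like protein induced by interleukin-4, had 10382, 15320, 9616 and 12595 CPM in young replicates 1 to 4 and 4602, 5885, 4817 and 4169 CPM in aged replicates 1 to 4. The groups did not overlap, and the fall held in the pairs of aged libraries alike (log2 fold change -1.30 ± 0.15 SE, adjusted p = 0.0022; -1.19, adjusted p = 0.0341 without aged 3 and 4). Mgl2 (chr11:70130329-70137550, +), a galactose-binding C-type lectin of macrophages and dendritic cells, had 1850, 1539, 1817 and 1783 CPM in the young and 687, 869, 859 and 840 CPM in the aged libraries. Every aged value was below every young value (log2 fold change -1.10 ± 0.09, adjusted p = 0.000489; -1.17 without the pair). Irf4 (chr13:30749226-30766976, +), a transcription factor that acts downstream of interleukin-4 in macrophages, had 95.8, 87.0, 91.9 and 110 CPM young and 41.3, 47.1, 42.6 and 45.1 CPM aged. Its groups also lay apart (log2 fold change -1.13 ± 0.09, adjusted p = 0.000474; -1.12 without the pair). Ccl24, an eosinophil-attracting chemokine, was lower by a similar amount (log2 fold change -1.01 ± 0.17, adjusted p = 0.0102), and its adjusted p was 0.0502 without the pair. Tgm2, the transglutaminase of this list, went the other way (log2 fold change 1.61 ± 0.35, adjusted p = 0.0273); it is named after its value was seen. Its call was lost without aged replicate 1 or 4 or young replicate 1, 3 or 4 (adjusted p 0.0649 to 0.0797).

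Promoter sequence was read from RefSeq (GRCm38.p6) for genes that fell together, of which 10 of 12 looked up were in the table. The windows searched are the 250 bases before each annotated start. The STAT6-type motif TTCNNNNGAA, in which N is any base and which reads the same on both strands, is present in 5.85% of 32851 promoter windows. The window of Retnla, shown because this gene is the standard marker of the group, holds the motif at position -145 from the RefSeq start (motif in capitals; the bases printed, chr16:48842359-48842550 on the + strand, stop before the gene's start in the GENCODE annotation).
Retnla: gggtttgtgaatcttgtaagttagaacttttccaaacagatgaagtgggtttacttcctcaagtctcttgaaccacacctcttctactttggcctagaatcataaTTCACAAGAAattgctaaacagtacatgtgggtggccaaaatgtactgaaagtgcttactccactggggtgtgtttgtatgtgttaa
The motif was found in 2 of the 10 genes (Retnla and Gbp3). This count is by gene, whereas the 5.85% is by window. Folr2 and Gbp3 have more than a single window, and the other window of Gbp3 lacks the motif. A match is a description of letters in this window and does not show a bound site.

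Of the Lyve1-type resident macrophage list, 6 of 17 genes tested fell (35.3%), none rose, and 2 were kept (Folr2 and Cd163). The median was -0.32, and -0.31 without aged 3 and 4. Ccl24, given above among the falling genes of alternative activation, is also 1 of the 6, so these lists are not fully separate observations. Cd163 (chr6:124304656-124330527, +), the scavenger receptor for haemoglobin-haptoglobin, had 2392, 2023, 1954 and 2386 CPM in the young and 1450, 1254, 1507 and 973 CPM in the aged libraries. All aged values were below all young values (log2 fold change -0.76 ± 0.13, adjusted p = 0.0128; -0.69, adjusted p = 0.035 without the pair). Folr2, the folate receptor of such macrophages, had 2049, 1703, 1583 and 2156 CPM young and 1173, 1068, 1424 and 770 CPM aged (log2 fold change -0.76 ± 0.17, adjusted p = 0.0345). The gap between its groups was narrow, and the call was lost without young replicate 1, 2 or 4 or aged replicate 1 or 2 (adjusted p 0.0604 to 0.098). Timd4, a receptor for phosphatidylserine on dying cells, had 490, 377, 392 and 497 CPM young and 281, 140, 276 and 127 CPM aged (log2 fold change -1.09 ± 0.26, adjusted p = 0.0398). Its aged libraries fell into a higher pair (replicates 1 and 3) and a lower pair (2 and 4), and the call was lost on leaving out any young library or aged replicate 2 or 4 (adjusted p 0.0637 to 0.102). F13a1, the A chain of coagulation factor XIII, fell by 0.66 on the log2 scale (SE 0.13, adjusted p = 0.0184), and its adjusted p was 0.057 without young replicate 4. Cbr2, a carbonyl reductase named after its value was seen, lay at the threshold (log2 fold change -0.51 ± 0.13, adjusted p = 0.0499) and lost the call without any library other than aged replicate 3 (adjusted p 0.0548 to 0.135). Lyve1 itself had 1791, 1405, 1234 and 1524 CPM young and 1087, 770, 1030 and 556 CPM aged. The groups did not overlap and the fold change was like that of the called members, but the adjusted p missed the threshold (log2 fold change -0.79 ± 0.20, adjusted p = 0.0507; leaving out aged replicate 1 gave 0.0441). Mrc1, the mannose receptor CD206, overlapped between groups (log2 fold change -0.15 ± 0.11, adjusted p = 0.574). No gene of this list was called without aged replicates 1 and 2, where the median was -0.36. With replicate number as a block in the fit none was called either, and the median was -0.33.

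Of the immunity GTPases, interferon-inducible proteins that act on vacuoles holding pathogens, 5 of 9 genes tested fell (55.6%), by 0.42 to 0.75 on the log2 scale, and none rose. Of the 5, 4 were kept; the list's median was -0.54, and -0.58 without the pair. Without aged replicates 1 and 2, 1 of the 9 was called and the median was -0.43. Gbp3 had 194, 218, 183 and 172 CPM in the young and 116, 113, 130 and 123 CPM in the aged libraries, without overlap (log2 fold change -0.67 ± 0.09, adjusted p = 0.00276; -0.74 without the pair). Irgm1 (log2 fold change -0.58 ± 0.10, adjusted p = 0.0111), Gbp7 (-0.54 ± 0.11, 0.0208) and Irgm2 (-0.42 ± 0.08, 0.0156) were kept as well, and Iigp1 (-0.75 ± 0.16, 0.0256) was lost. Gbp7 lost its call without aged replicate 1, 2 or 4 (adjusted p 0.054 to 0.0599), and Iigp1, named after its value was seen, without young replicate 2, 3 or 4 or aged replicate 1, 2 or 4 (0.0568 to 0.0725). Gbp2b, a guanylate-binding protein outside the list, had 140, 351, 123 and 182 CPM young and 38.6, 58.7, 50.4 and 49.6 CPM aged. It had the largest fall among called genes of non-overlapping groups whose mean was 3 or more in log2 CPM (log2 fold change -2.01 ± 0.30, adjusted p = 0.00574), and its adjusted p was 0.0823 without aged 3 and 4, with an almost equal fold change of -2.03. Near-identical neighbours make the split of reads between guanylate-binding protein genes uncertain. On the broad list of interferon-stimulated genes 2 of 34 rose (5.88%, near the 3.43% of all genes), none fell, and the median was -0.19. Without aged replicates 3 and 4 neither of the 2 was called, 1 other gene was lower, and the median was -0.28; DESeq2 called 2 higher and 3 lower in all 8 libraries, and leaving out 1 library gave 0 to 2 higher and 0 to 2 lower.

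Of 21 genes tested on the list of lipid-associated macrophages 11 rose (52.4%), none fell, 10 did not pass and 8 were kept; the median was 0.80 in all 8 libraries and 0.83 without aged replicates 3 and 4. Of the 11 that rose 5 (Gpnmb, Syngr1, Spp1, Mmp12 and Fabp4) are on the tissue side by the rule above, and 6 on neither side. Fabp4 had 6325 CPM in young whole capsule against 22.5 CPM in sorted capsule macrophages, and Gpnmb 14.1 CPM in young and 665 CPM in aged whole capsule against 2.92 CPM. The stromal lists were higher in the same aged libraries, and their part in the rise of these 5 genes was not tested. Gpnmb (chr6:49036546-49070929, +), a transmembrane glycoprotein of lysosome-rich macrophages, had 4.81, 12.3, 4.19 and 3.52 CPM in the young and 85.2, 115, 50.9 and 110 CPM in the aged libraries. The lowest aged library was well above the highest young library (log2 fold change 3.86 ± 0.43, adjusted p = 0.00151; 4.02, adjusted p = 0.00772 without the pair). Trem2 (chr17:48346401-48354147, +), the lipid-sensing receptor upstream of this set, had 69.6, 52.4, 70.7 and 65.1 CPM young and 145, 143, 129 and 144 CPM aged (log2 fold change 1.12 ± 0.10, adjusted p = 0.000492; 1.16 without the pair). All aged libraries were above all young ones and close to each other. Plin2, which coats lipid droplets, had 586, 639, 583 and 576 CPM young and 1081, 1037, 948 and 1099 CPM aged, again without overlap (log2 fold change 0.80 ± 0.07, adjusted p = 0.000489). Cd63, a tetraspanin of late endosomes, had 123, 122, 136 and 134 CPM young and 260, 257, 253 and 214 CPM aged (log2 fold change 0.93 ± 0.08, adjusted p = 0.000489; 1.01 without the pair). Syngr1, a vesicle protein, rose from 1.07 to 1.99 CPM across the young to 6.33 to 8.64 CPM across the aged libraries (log2 fold change 2.30 ± 0.24, adjusted p = 0.00109).

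Further members varied more between libraries. Spp1 (osteopontin) had 10.8, 9.19, 6.58 and 8.04 CPM young and 39.5, 53.5, 14.1 and 54.4 CPM aged (log2 fold change 2.22 ± 0.37, adjusted p = 0.00902), with aged replicate 3 closest to the young. It was kept, as were Atp6v0d2, a subunit of the lysosomal proton pump (1.30 ± 0.13, adjusted p = 0.00109), and Fabp4, a fatty acid carrier (1.50 ± 0.20, adjusted p = 0.00333). Spp1, Atp6v0d2 and Lgals3 are named after their values were seen. Mmp12, the macrophage elastase, had 18.1, 64.6, 29.8 and 17.6 CPM young and 152, 204, 133 and 259 CPM aged (log2 fold change 2.52 ± 0.41, adjusted p = 0.00869); without the pair its adjusted p was 0.0538 at a log2 fold change of 2.45. Cd9 (1.04 ± 0.20, adjusted p = 0.0173) and Lgals3, galectin-3 (0.73 ± 0.15, adjusted p = 0.0245), lost their call without the pair; Cd9 also lost it without young replicate 4 (0.0504), and Lgals3 without young replicate 1, 3 or 4 or aged replicate 1 or 4 (0.0581 to 0.0716). Apoe, the lipid carrier that macrophages secrete in large amounts, was not called (log2 fold change 0.36 ± 0.13, adjusted p = 0.164), and its groups overlapped; its adjusted p was 0.0463 without aged replicate 1. Ctsk, the lysosomal collagen-cleaving protease, which is on the lysosome list and on the tissue side, had 2.23, 0.988, 1.65 and 1.78 CPM young and 7.32, 8.75, 16.4 and 20.4 CPM aged (log2 fold change 2.99 ± 0.38, adjusted p = 0.0027; 2.27 without the pair). Of 39 lysosome genes tested 3 rose (7.69%) and none fell, with a median of 0.07.

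**Figure D3:**
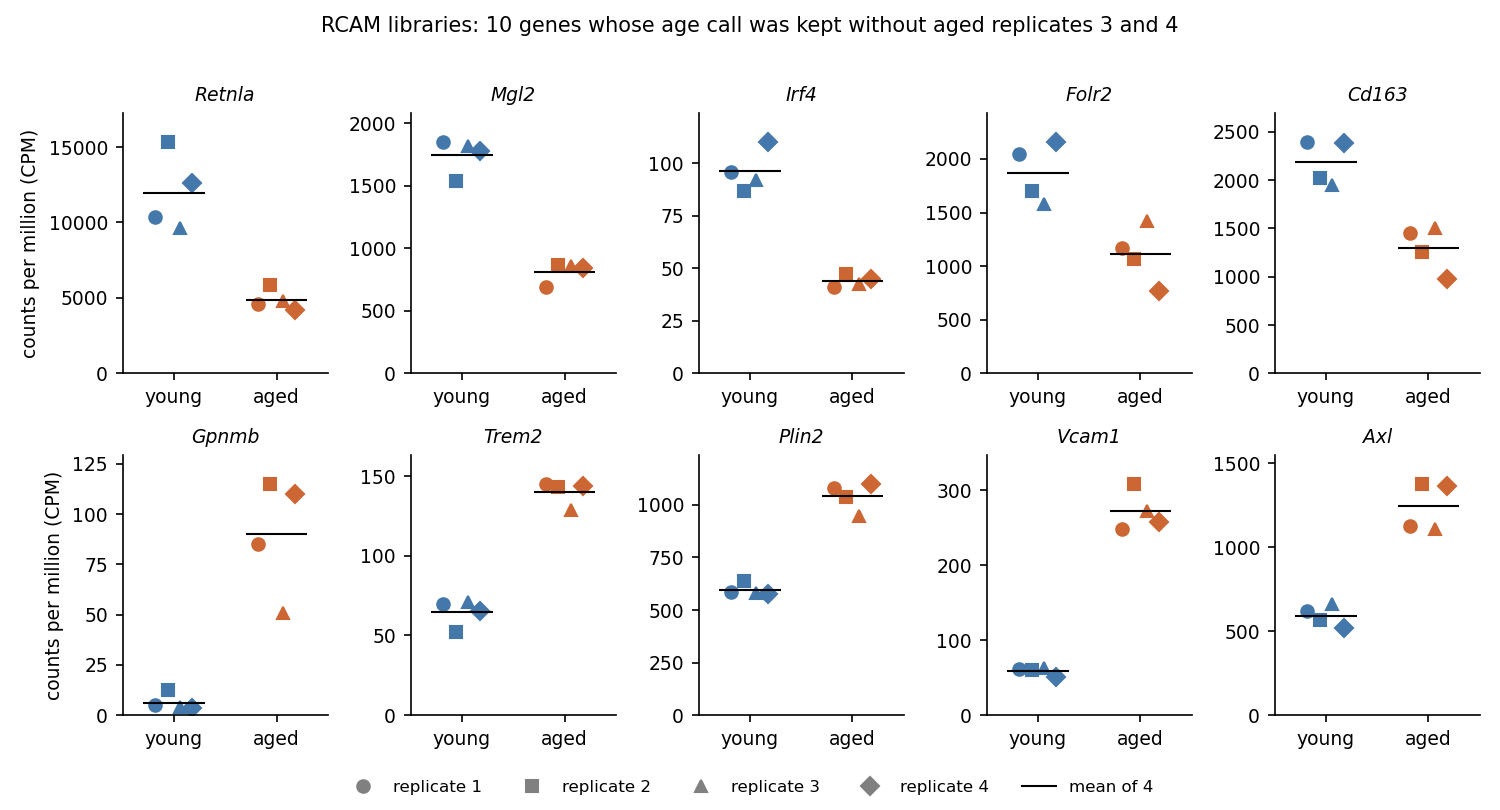
CPM of 10 genes in each RCAM library (points, shape by replicate; horizontal line, mean of 4; y axes start at 0) for young and aged libraries. The 10 genes were picked from those called in all 8 libraries and again without aged replicates 3 and 4. The separation of the groups therefore follows largely from this choice and is given as a description. In each panel the aged libraries lie wholly below (Retnla, Mgl2, Irf4, Folr2, Cd163) or wholly above (Gpnmb, Trem2, Plin2, Vcam1, Axl) the young ones. Aged replicates 3 and 4 do not stand apart from 1 and 2 in the same direction throughout.

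Vcam1 (chr3:116109949-116129688, -), the ligand of integrin alpha-4 beta-1 that anchors leukocytes, had the smallest p of the genes named here. It had 61.8, 60.6, 63.2 and 50.5 CPM in the young and 248, 308, 272 and 258 CPM in the aged libraries. The groups were far apart and tight (log2 fold change 2.20 ± 0.10, adjusted p = 9.75e-06; 2.24, adjusted p = 0.000731 without aged 3 and 4). Id3, an inhibitor of basic helix-loop-helix transcription factors, had 6.61, 7.92, 6.73 and 6.41 CPM young and 37.0, 24.9, 28.0 and 29.9 CPM aged (log2 fold change 2.11 ± 0.14, adjusted p = 0.000296; 2.16 without the pair). Id3 is on the tissue side by the rule above, and the part of other capsule cells in its rise was not tested. Pdk4, a kinase that holds back pyruvate oxidation and is named after its value was seen, had 7.88, 13.6, 6.37 and 10.9 CPM young and 56.3, 64.3, 57.5 and 66.5 CPM aged. Its aged libraries were close to each other and none overlapped the young (log2 fold change 2.66 ± 0.21, adjusted p = 0.000474; 2.64 without the pair). Of the TGF-beta family, Gdf3 (log2 fold change 3.09 ± 0.35, adjusted p = 0.00168) and the stress-induced cytokine Gdf15 (2.08 ± 0.32, adjusted p = 0.00618) also rose and were kept.

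Among receptors and bridging proteins for the uptake of dying cells, most of the called genes rose. Of 21 efferocytosis genes 6 rose (28.6%), 5 of them kept, and 1 fell (Timd4). The median was 0.02. The call of Timd4 was lost without aged replicates 3 and 4 (adjusted p = 0.121) and on leaving out several single libraries, as given above. Axl, a TAM receptor tyrosine kinase, had 623, 566, 660 and 520 CPM in the young and 1125, 1376, 1108 and 1366 CPM in the aged libraries (log2 fold change 1.07 ± 0.10, adjusted p = 0.000865; 1.08 without the pair). Its groups did not overlap. Itgb5, the integrin beta-5 chain, had 230, 140, 200 and 153 CPM young and 393, 521, 410 and 473 CPM aged (1.31 ± 0.16, adjusted p = 0.00226). Cd93, a C-type lectin-like receptor (1.11 ± 0.09, adjusted p = 0.000489), and Mfge8, which bridges phosphatidylserine to integrins (0.83 ± 0.12, adjusted p = 0.00503), rose as well. Without the pair Mfge8 was at 0.62, still called.

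Some genes on a list of checkpoint and inhibitory receptors rose. Being on this list does not by itself make a receptor inhibitory. Of 15 genes tested on the checkpoint and inhibitory receptor list 6 rose (40%), by 0.46 to 0.94 on the log2 scale, 9 did not pass, none fell and 4 were kept (Cd300a, Sirpa, Cd300c2 and Clec12a); the median was 0.46, and 0.24 without the pair. Sirpa, the receptor for the CD47 signal, had 1083, 939, 947 and 921 CPM in the young and 1309, 1414, 1308 and 1325 CPM in the aged libraries (log2 fold change 0.46 ± 0.07, adjusted p = 0.00598). Cd300a, which binds phospholipids of dying cells, had 227, 212, 215 and 214 CPM young and 307, 316, 304 and 320 CPM aged (0.52 ± 0.06, adjusted p = 0.00149). Neither gene overlapped between groups. Cd300c2 (0.91 ± 0.16, adjusted p = 0.0135) and the lectin Clec12a (0.51 ± 0.09, adjusted p = 0.0142) rose as well. Among 30 scavenger and C-type lectin receptors 5 rose (16.7%) and 2 fell (6.67%). Clec4n (dectin-2), which recognises fungal mannans, was the kept riser with the smallest p (1.28 ± 0.20, adjusted p = 0.00662), and Colec12, a collectin scavenger receptor, fell together with Cd163 (-0.85 ± 0.21, adjusted p = 0.0455). Colec12 lost its call without any library other than aged replicate 3 (adjusted p 0.0708 to 0.115). Tlr13, the receptor for bacterial ribosomal RNA, rose and was kept (0.90 ± 0.12, adjusted p = 0.00329).

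Inflammatory genes moved in part. On the list of inflammatory cytokines and NF-kB genes 6 of 30 rose (20%), none fell and 2 were kept; the median was 0.23, and 0.14 without aged 3 and 4. Il1b (chr2:129364570-129371139, -), which encodes interleukin-1 beta, had 17.9, 20.8, 29.3 and 24 CPM in the young and 56.7, 49.7, 39.0 and 60.6 CPM in the aged libraries (log2 fold change 1.16 ± 0.17, adjusted p = 0.0056; 1.21 without the pair). Its groups did not overlap. Tnfaip3 (A20), a brake on NF-kB, was also higher in every aged library (0.70 ± 0.10, adjusted p = 0.00412). Cebpb, a transcription factor of inflammatory macrophages, had 270, 294, 202 and 262 CPM young and 424, 529, 381 and 787 CPM aged (1.05 ± 0.21, adjusted p = 0.0218), and lost its call without young replicate 3 or 4 (0.0584 and 0.0585). Nr4a1, an immediate early nuclear receptor, rose (1.44 ± 0.20, adjusted p = 0.00379). The immediate early list, which responds to tissue handling as well as to signals, summed to 6141 to 8738 CPM young and 8213 to 11576 CPM aged. Of its 22 genes 3 were called higher (13.6%), and 13 were higher and 1 lower at an unadjusted p under 0.05 in edgeR. The part of handling in the rises of Nr4a1, Il1b, Tnfaip3 and Cebpb was not tested.

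Among chemokines and acute phase genes the largest changes were the least even. Cxcl13 (chr5:95956951-95961068, +), the chemokine that draws B cells, had 16.1, 5.24, 35.2 and 3.96 CPM in the young and 736, 106, 109 and 131 CPM in the aged libraries. Aged replicate 1 was far above the other aged libraries, and every aged library was above every young one (log2 fold change 4.16 ± 0.89, adjusted p = 0.027). The fold change was 2.93 without aged replicate 1 and 5.0 without young replicate 3, and the call was lost without young replicate 1, 2 or 4 (adjusted p 0.0688 to 0.0694) and without aged 3 and 4 (0.0562). Saa3, a serum amyloid A made by macrophages and other cells, had 7.68, 5.89, 14.5 and 8.83 CPM young and 169, 34.9, 21.8 and 126 CPM aged (3.25 ± 0.62, adjusted p = 0.0166). Its call was lost without young replicate 2 (0.0525) or 4 (0.0554). Ccl11 (eotaxin-1), a chemokine that fibroblasts make, had 0.851 to 2.06 CPM in the young and 8.68, 6.09, 15.4 and 11.7 CPM in the aged libraries, highest in aged replicates 3 and 4 (2.93 ± 0.35, adjusted p = 0.00226; 2.43 without the pair). Ccl8, a monocyte-attracting chemokine of resident macrophages, was not called (0.68 ± 0.22, adjusted p = 0.133; 0.0478 without aged replicate 4).

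Jchain and Mzb1, transcripts of antibody-secreting cells, were present in all aged libraries and close to absent from the young, whereas Ighm was abundant in both groups. Of 9 plasma cell genes tested 2 rose and 1 fell, and the median was 0.23. The list summed to 1463 to 1640 CPM in the young and 1744 to 2576 CPM in the aged libraries, and most of that sum was Ighm, described below. Immunoglobulin gene segments, a list that also holds Ighm, summed to 1003 to 1181 CPM in the young and 1453 to 2280 CPM in the aged libraries. Most of this sum was again Ighm, so the 2 sums are not separate observations. Of 268 segments 252 had no count in any young library, and 2 of the 5 tested rose. Jchain, the joining chain of polymeric antibodies, had 0, 0, 12 and 0 counts in the young and 4788, 12131, 2065 and 1514 counts in the aged libraries. On the CPM scale the aged libraries held 100, 237, 45.7 and 32.4, highest in replicate 2 and lowest in replicates 3 and 4, an order unlike that of the fibroblast list (adjusted p = 0.000861; 0.000731 without aged 3 and 4). The ratio of the pooled rates was 1860, and the fitted log2 fold change of 10.73 was 15.31 without young replicate 3 and 9.93 without aged replicate 2. Mzb1, a chaperone of plasma cells and marginal zone B cells, had 0 counts in every young library and 205, 233, 34 and 47 in the aged libraries, at least 188-fold higher against a floor of 3 counts over the young group (adjusted p = 0.00796; 0.00772 without the pair). Both genes were kept. Irf4, also on the plasma cell list, fell in the same libraries.

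Most B cell markers were low in both groups. Of 11 B cell genes tested 4 rose (36.4%), of which 1 was kept. Cd22, a sialic acid-binding receptor of B cells, had 4.50, 2.42, 4.04 and 1.39 CPM in the young and 17.1, 26.7, 18.1 and 16.2 CPM in the aged libraries (log2 fold change 2.66 ± 0.34, adjusted p = 0.00276; 2.83 without the pair). Cd79a, a chain of the B cell receptor, stood at 0.171 to 0.337 CPM in the young and 0.576 to 1.36 CPM in the aged libraries (1.87 ± 0.45, adjusted p = 0.0447). The call of Cd79a was lost on leaving out any library other than aged replicate 3 (adjusted p 0.0871 to 0.123), and that of Cd79b (0.91 ± 0.20, adjusted p = 0.0307) without young replicate 4 or aged replicate 2 or 4 (0.0734 to 0.0857). Ms4a1 had no count in any young library. Ighm, the mu heavy chain, was abundant in both groups, at 1213, 984, 962 and 1126 CPM young and 1825, 1536, 1414 and 1217 CPM aged, and narrowly missed the threshold (0.48 ± 0.12, adjusted p = 0.0567; 0.0308 without aged replicate 4 and 0.043 without aged 3 and 4). The summed level of the B cell list was 129 to 151 CPM young and 146 to 178 CPM aged, and that of the T cell list 43.5 to 56.1 and 69.3 to 90.3 CPM, with 0 of 12 T cell genes called by edgeR or limma-voom, 2 called higher by DESeq2, 2 at an unadjusted p under 0.05 in edgeR, and 10 of 12 positive in sign. The part of B lineage cells in these values was not tested.

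Of 29 fibroblast genes tested 17 rose (58.6%), all of them on the tissue side, none fell and 9 were kept. The median was 1.40, and 0.82 without aged replicates 3 and 4, a drop that the choice of this pair by its fibroblast transcripts fixes; it was 1.96 without aged replicates 1 and 2. Dcn (decorin, chr10:97479609-97518143, +), a small proteoglycan on collagen fibrils, had 176, 132, 215 and 180 CPM in the young and 529, 439, 953 and 734 CPM in the aged libraries. Aged replicates 1 and 2 were already above every young library (log2 fold change 1.92 ± 0.24, adjusted p = 0.00246; 1.46, adjusted p = 0.00913 without the pair). Pdgfra, the receptor tyrosine kinase that marks fibroblasts, had 29.5, 30.2, 28.9 and 36.9 CPM young and 80.5, 64.1, 117 and 127 CPM aged (1.63 ± 0.20, adjusted p = 0.00266; 1.20 without the pair). Fbln2 (2.63 ± 0.27, adjusted p = 0.00109), Loxl1, a crosslinking enzyme of elastin (2.30 ± 0.29, adjusted p = 0.00266), and Lum, named after its value was seen (2.02 ± 0.28, adjusted p = 0.00389), were kept with log2 fold changes of 2.06, 1.68 and 1.55 without the pair.

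The fibrillar collagens were called in some sets of libraries and not in others. Col1a1 (chr11:94936224-94953042, +) had 65.4, 47.3, 63.1 and 91.4 CPM in the young and 76.9, 53.4, 144 and 235 CPM in the aged libraries. Only aged replicates 3 and 4 lay above the young (log2 fold change 0.93 ± 0.40, adjusted p = 0.265; -0.04 without the pair). Col3a1 had 199, 185, 245 and 229 CPM young and 257, 175, 511 and 841 CPM aged (1.06 ± 0.40, adjusted p = 0.196; 0.01 without the pair). Neither collagen was called in all 8 libraries or without the pair. Without aged replicates 1 and 2 both were called higher (Col1a1 1.51, adjusted p = 0.0228; Col3a1 1.66, adjusted p = 0.00395), and the difference of either from Dcn was not tested. Of 27 collagen and matrix genes 12 rose (44.4%), 1 fell and 6 of those that rose were kept. The median was 1.27, 0.56 without the pair and 1.76 without aged replicates 1 and 2. The summed level of this list overlapped between groups, at 3436 to 5092 CPM in the young and 3050 to 5603 CPM in the aged libraries. Fbln5, an elastic fibre protein (1.93 ± 0.26, adjusted p = 0.00352; 1.31 without the pair), and Emilin1 (1.37 ± 0.18, adjusted p = 0.00297; 1.22) were among those kept.

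Among higher genes with a mean of 3 or more in log2 CPM and no overlap between groups, those that lost their call with the largest drop in log2 fold change without the pair were stromal. Fbn1 (fibrillin-1) had 4.71, 7.12, 7.28 and 6.12 CPM in the young and 22, 8.98, 56.3 and 44.7 CPM in the aged libraries (log2 fold change 2.39 ± 0.47, adjusted p = 0.0194; 1.30, adjusted p = 0.134 without the pair). Its aged replicate 2 was close to the young. Pdgfrb, the receptor of pericytes and fibroblasts, had 6.32, 1.75, 3.81 and 4.51 CPM young and 11.1, 7.55, 28.7 and 22.3 CPM aged (2.08 ± 0.47, adjusted p = 0.0324; 1.19 without the pair). Gfpt2 (1.95 to 0.98), Cilp (2.38 to 1.53), Cd248 (2.18 to 1.35) and Fstl1 (1.79 to 0.99) showed the same drop in log2 fold change. Leaving out a single library ended the call of Fbn1 (young replicate 1, 2 or 4, or aged 4; adjusted p 0.0511 to 0.0604), Gfpt2 (young 2, 3 or 4, or aged 3 or 4; 0.0592 to 0.104), Pdgfrb (young 2, 3 or 4, or aged 3 or 4; 0.0639 to 0.0864) and Fstl1 (young 2, 3 or 4, or aged 4; 0.0635 to 0.0745).

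Other genes of the tissue side with large changes stayed called. Aebp1, a matrix-bound carboxypeptidase-like protein, had 13.4, 6.17, 8.24 and 9.42 CPM in the young and 43.9, 56.3, 136 and 86.9 CPM in the aged libraries (log2 fold change 3.11 ± 0.37, adjusted p = 0.00202; 2.43 without the pair). Apod, a lipocalin that binds lipids, had 8.83, 4.33, 5.74 and 7.46 CPM young and 34.5, 40.1, 76.7 and 65.2 CPM aged (3.04 ± 0.30, adjusted p = 0.000951; 2.50 without the pair). In both genes each aged library lay above each young one. Thbs2 (2.87 to 2.27), Pamr1 (3.42 to 2.22), Lrrn4cl (2.91 to 2.01), Pla1a (2.83 to 2.09) and Adgrd1 (2.75 to 2.06) were kept at smaller log2 fold changes without the pair; Pamr1 was at 2.77 without aged replicate 3.

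Mural and endothelial transcripts were few. Of 11 pericyte and smooth muscle genes 3 rose (27.3%; median 2.08, and 1.20 without the pair), and the list summed to 29.2 to 48.0 CPM in the young and 84.3 to 139 CPM in the aged libraries. Rgs5, a pericyte marker, had no count in any young library and 10, 41, 69 and 19 in the aged ones, at least 50.5-fold higher against the floor of 3 counts over the young group (adjusted p = 0.0149; 0.113 without the pair). Mylk, the myosin light chain kinase, was kept (1.36 ± 0.16, adjusted p = 0.00226). Of 16 endothelial genes 3 rose (18.8%), with a median of 1.71 falling to 1.04, and the highest sum, 114 CPM, was in aged replicate 3 against 39.6 to 45.9 CPM in the other aged libraries. Plvap, of fenestrated endothelium, had 33.3 CPM in that library and 0.774, 2.76 and 5.39 CPM in the other aged libraries (4.90 ± 1.16, adjusted p = 0.0412), with a log2 fold change of 3.07 (adjusted p 0.0785) without it, 5.85 without young replicate 2, and no call without any library other than aged replicates 1 and 2. Tek, the angiopoietin receptor, was kept (2.60 ± 0.42, adjusted p = 0.00821). Pecam1 was not called (0.47 ± 0.27, adjusted p = 0.427).

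**Figure D4:**
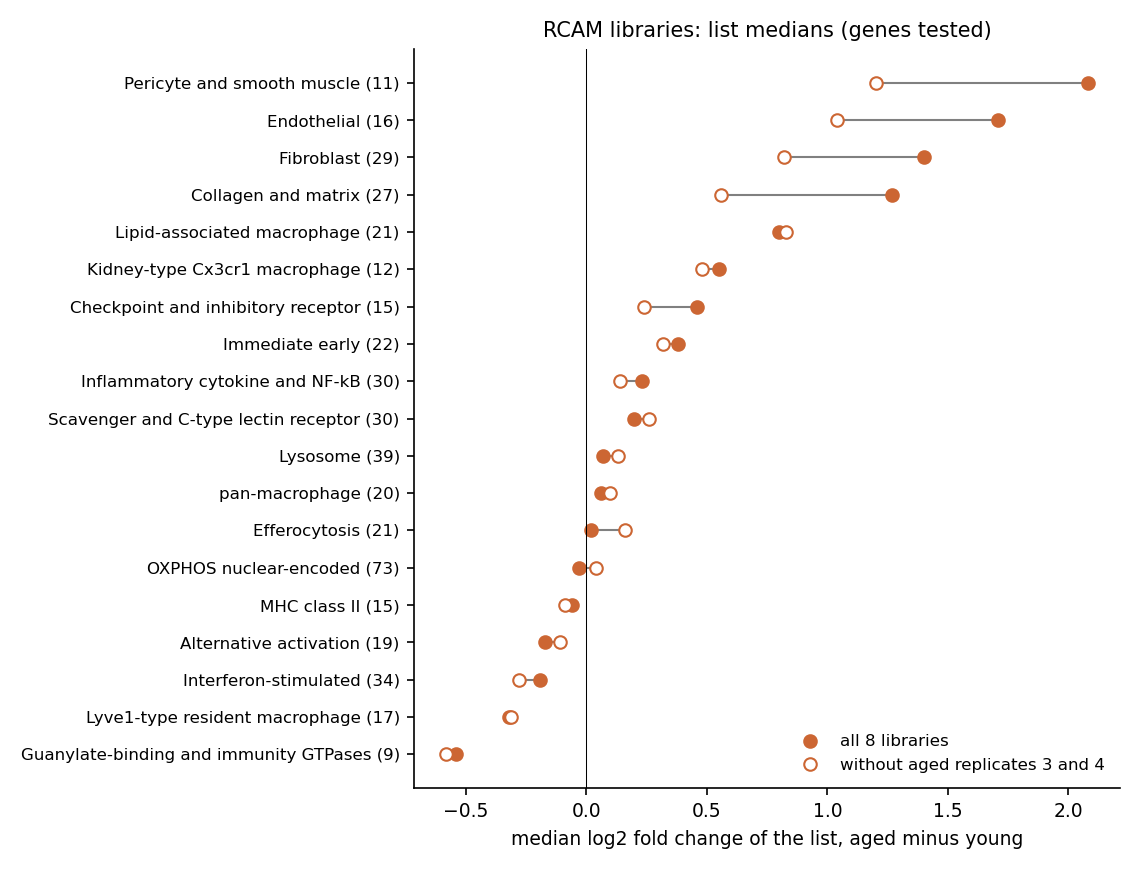
Median log2 fold change (aged minus young) of 19 gene lists in the RCAM libraries, with all 8 libraries (filled) and without aged replicates 3 and 4 (open); the number of genes tested is in brackets. The median of the fibroblast list is 1.40 and 0.82 (a drop fixed by the choice of the pair by fibroblast transcripts), that of the lipid-associated list 0.80 and 0.83, and that of the GTPases -0.54 and -0.58.

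Genes that define macrophages, antigen presentation and basic metabolism were mostly not called. Csf1r, the receptor for the survival factor CSF1, ranged from 7400 to 9307 CPM in the young and 7182 to 8859 CPM in the aged libraries (log2 fold change -0.07 ± 0.09, adjusted p = 0.769), and Adgre1 (F4/80) was similar in both groups (0.12 ± 0.10, adjusted p = 0.629). Of the 20 macrophage genes Trem2 alone was called. Cd74 (-0.17 ± 0.11, adjusted p = 0.48) and H2-Aa (-0.09 ± 0.09, adjusted p = 0.695), of MHC class II presentation, overlapped between groups, and 1 of 15 MHC class II genes was called, H2-DMb2 (-0.79 ± 0.16, adjusted p = 0.0233). That call was lost without young replicate 1 or 2 or aged replicate 2 (0.0576 to 0.0632) and without the pair (0.0597). Cx3cr1, the fractalkine receptor, did not overlap between groups yet missed the threshold (0.76 ± 0.21, adjusted p = 0.0752), while Ccr2, which marks monocyte-derived cells, was at 506 to 768 CPM young and 472 to 678 CPM aged (-0.10 ± 0.14, adjusted p = 0.799). Itgax (CD11c) also overlapped (0.44 ± 0.22, adjusted p = 0.354; 0.0416 without young replicate 2). None of 73 nuclear-encoded oxidative phosphorylation genes, 53 ribosomal protein genes and 32 cell cycle genes was called by edgeR, DESeq2 or limma-voom, with 1 gene of each list at an unadjusted p under 0.05 in edgeR and medians of -0.03, 0.06 and 0.06.

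Further genes that fell and were kept have no single theme. Npr1, the receptor of atrial natriuretic peptide, had 25.9, 18.4, 19.4 and 22.9 CPM in the young and 6.80, 6.52, 9.33 and 5.91 CPM in the aged libraries (log2 fold change -1.60 ± 0.17, adjusted p = 0.00149; -1.70 without the pair). Aff3, a transcription elongation factor subunit, had 43.5, 47.7, 40.7 and 47.0 CPM young and 22.7, 20.3, 20.6 and 17.8 CPM aged (-1.14 ± 0.10, adjusted p = 0.000492). In both the groups were well apart. Slfn1, a Schlafen family member (-1.06 ± 0.17, adjusted p = 0.00775), the potassium channel Kcnq1 (-0.99 ± 0.11, adjusted p = 0.00142), protein kinase C alpha, Prkca (-0.95 ± 0.12, adjusted p = 0.00268), and Cmah, the enzyme that makes N-glycolylneuraminic acid (-0.81 ± 0.14, adjusted p = 0.0115), were kept. Nrap was kept as well (-1.37 ± 0.27, adjusted p = 0.0177), with an adjusted p of 0.0535 without young replicate 4. Lyz1 (-1.22 ± 0.29, adjusted p = 0.0426), Cd2 (-1.25 ± 0.29, 0.04) and the chemokine receptor Ccr1 (-0.83 ± 0.15, 0.0149) were lost without the pair. The calls of Lyz1 (without any library other than young replicate 4; adjusted p 0.0584 to 0.102) and Cd2 (without any other than young replicate 3 and aged replicate 4; 0.053 to 0.0973) also ended on leaving out 1 library. Lyz1 has a near-identical neighbour in Lyz2, so its count is uncertain.

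A few clock genes moved, in opposite directions. Nr1d1 (REV-ERB alpha), which represses Arntl, had 10.1, 8.73, 11.7 and 11.9 CPM in the young and 28.8, 30.0, 64.4 and 35.3 CPM in the aged libraries (log2 fold change 1.90 ± 0.25, adjusted p = 0.00329; 1.47 without the pair). Its groups did not overlap. Arntl (BMAL1) had 112, 94.8, 94.8 and 95.8 CPM young and 75.6, 68.8, 72.3 and 55.8 CPM aged (-0.55 ± 0.10, adjusted p = 0.0172), and its partner Clock was lower by 0.44 on the log2 scale (SE 0.08, adjusted p = 0.0154). Without aged 3 and 4 their adjusted p were 0.0921 and 0.107. Of 17 clock genes 2 rose and 2 fell (11.8% each). The labels do not give the hour at which the capsules were taken, so an age difference and a difference in hour cannot be told apart.

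Whole capsule offered an age comparison in unsorted tissue, with 3 young and 3 aged libraries that share no sample with the RCAM libraries. The protocol text describes a library kit for 100 ng and another for 2 ng of RNA without saying which samples had which, so a difference of kit between RCAM and whole capsule cannot be told apart from one of tissue. The age difference of 952 of 18856 genes (5.05%) differed between RCAM and whole capsule (interaction in edgeR, adjusted p under 0.05), 589 with the more positive value in RCAM and 363 with the more negative. This count was 101 without aged RCAM replicates 3 and 4. Leaving out 1 library moved it most without capsule aged replicate 1 (282) or 3 (1594) and capsule young replicate 1 (327), and to between 491 and 574 without RCAM young replicate 1, 3 or 4 or RCAM aged replicate 1, 3 or 4 (633 to 906 without any of the others). Of the 520 higher genes 506 were tested in whole capsule: 359 (70.9%) had the same sign there, against 54.2% with a positive sign of the 13781 genes tested in both, 7 were called higher, and the median was 0.24, against 0.05. Over all 16350 genes tested in whole capsule 25 (0.153%) were called higher and 14 (0.0856%) lower. Of the 209 lower genes 206 were tested, 67 (32.5%) had the same sign, against 45.8% with a negative sign of the genes tested in both, 2 were called lower, and the median was 0.22.

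For several genes named above the age difference itself differed between RCAM and whole capsule. Of the whole capsule values given here that of Ighm alone passed the test within whole capsule (adjusted p = 0.00918); those of the others did not (adjusted p 0.0711 to 0.972). Pdk4 was at -2.25 on the log2 scale in whole capsule against 2.66 in RCAM (difference 4.95, adjusted p = 0.00328). Id3 was at -0.19 against 2.11 (difference 2.34, adjusted p = 0.00194), and Spp1 at -1.67 against 2.22 (difference 3.93, adjusted p = 0.0223). Slfn1 was at 1.07 in whole capsule and -1.06 in RCAM (difference -2.09, adjusted p = 0.0253), and Gbp7 at 0.84 and -0.54 (difference -1.34, adjusted p = 0.0161). The fibroblast genes Dcn and Pdgfra stood at 0.25 and 0.02 in whole capsule, where fibroblast genes are abundant, against 1.92 and 1.63 in RCAM (differences 1.70 and 1.65, adjusted p = 0.0328 and 0.0252). Ighm was at 4.47 in whole capsule and 0.48 in RCAM (difference -3.95, adjusted p = 1.02e-05). For Gpnmb (5.45 in whole capsule), Trem2 (3.39), Vcam1 (1.39), Retnla (-0.96), Mgl2 (-0.79) and Irf4 (-1.74) the sign was the same in both, and the difference between RCAM and whole capsule was not called (adjusted p 0.404, 0.0969, 0.0801, 0.825, 0.68 and 0.507). Cd163 was at 0.40 in whole capsule and -0.76 in RCAM, with an uncalled difference of -1.11 (adjusted p = 0.117).

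**Figure D5:**
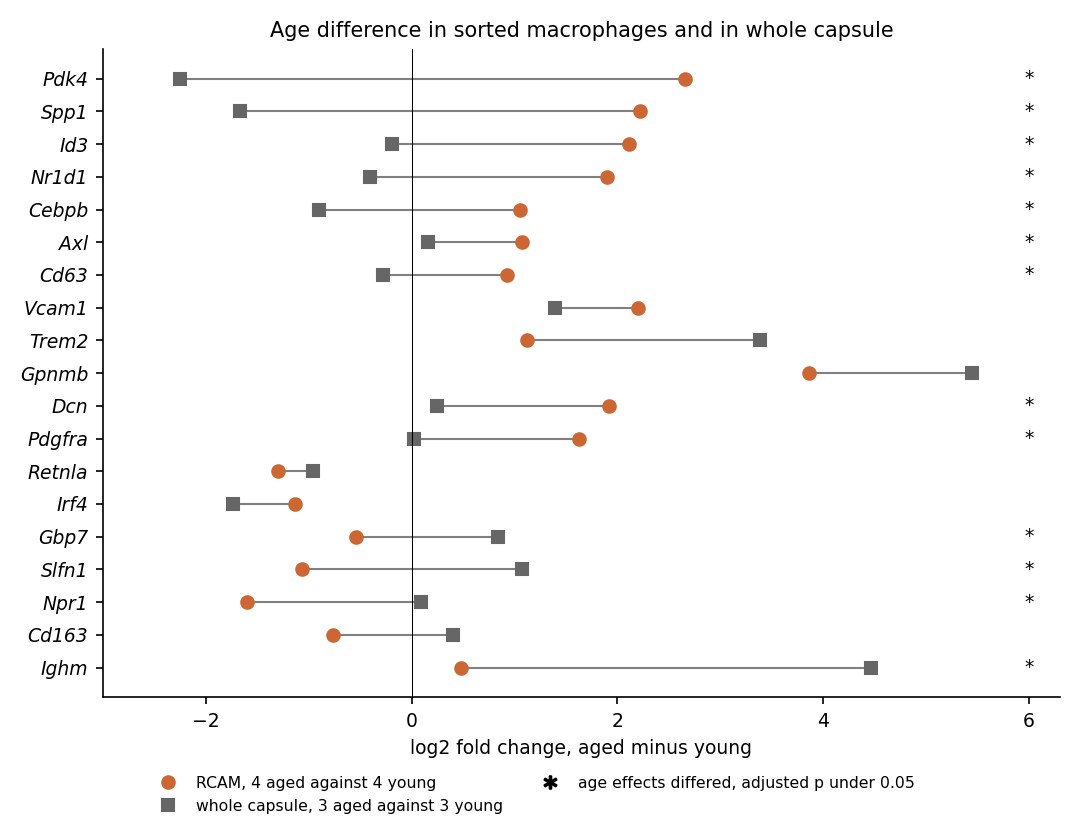
Log2 fold change (aged minus young) of 19 genes in RCAM libraries (circles, 4 against 4) and in whole capsule (squares, 3 against 3); an asterisk marks genes whose age differences differed at an adjusted p under 0.05. Pdk4 lies at 2.66 in RCAM and -2.25 in whole capsule, whereas Gpnmb, Trem2, Vcam1, Retnla and Irf4 have the same sign in both.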

How the data were processed

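Bulk RNA-seq was deposited for 22 mouse samples as gene counts, one table per sample. Per the file headers each table holds counts per Ensembl gene, and the authors deposited them without normalization; the genome build was GRCm38 per the submitters' processing notes. The sources used here name no aligner or counter and no setting for strand, so overlapping antisense genes cannot be separated. Reads were single-end, 50 bases, per the labels' protocols. Of 52636 gene IDs 52489 matched GENCODE M21 names; the other 147 have no name here. Groups and replicates come from the titles. No 2 RCAM libraries agreed in more than 0.757% of gene counts.

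Counts were fitted with edgeR 4.0.16 (TMM, filterByExpr, quasi-likelihood F test) in R 4.3.3, aged against young, 8 libraries, no covariate; Benjamini-Hochberg adjustment over all genes tested, threshold 0.05. The same fit was run without aged replicates 3 and 4, and with capsule tissue for the interaction. Scripts were tested on simulated data. Alternatives were RLE factors, no filter beyond a total above 0, DESeq2 1.42.0, limma-voom (limma 3.58.1), a replicate block, all 6 groups in 1 fit, and each library or aged pair left out. Precision is limited by 4 libraries a group.

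The members, the gene lists (textbook sets) and the expression sides were chosen with earlier results of these data known. Named genes were the 12 largest changes in each direction with mean log2 CPM of at least 3 and no overlap, in all 8 libraries and among the kept genes; the 6 in each direction that lost their call and shrank most; up to 4 members of smallest p per list; and 24 listed macrophage and stromal genes. Not all are printed.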

Additional observations from a re-analysis of the deposited data

Results flagged for a closer look

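In 21 of 276 groups of 4 libraries examined, the highest or lowest library lay far from the other 3 (gap over range above Dixon's critical value); chance gives about 1 in 20 such groups. Aged replicate 1 was the highest for Cxcl13 (736 CPM) and the lowest for Mgl2 (687 CPM) and for the T cell list (69.3 CPM summed). Aged replicate 2 was the highest for Clec12a (367 CPM), Sirpa (1414 CPM) and the B cell list (178 CPM summed). Aged replicate 3 was the highest for Plvap (33.3 CPM), Tek (14.6 CPM) and the endothelial list (114 CPM summed), and the lowest for Trem2 (129 CPM). Aged replicate 4 was the lowest for Cd63 (214 CPM) and the highest for Emilin1 (101 CPM). Among the young libraries, replicate 1 was the highest for Arntl (112 CPM), Sirpa (1083 CPM) and Cd300a (227 CPM). Replicate 2 was the highest for Gpnmb (12.3 CPM), Plin2 (639 CPM), Irgm2 (195 CPM) and Itgax (100 CPM), replicate 3 for Jchain (0.227 CPM) and replicate 4 for Pdgfra (36.9 CPM).

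The age difference of 45 of the 112 genes named differed between RCAM and whole capsule, against 5.05% of all genes tested; most of the 112 were chosen by their age difference in RCAM, which favours such a difference (interaction in edgeR, adjusted p under 0.05; values are RCAM minus whole capsule, log2). Stromal genes were more positive in RCAM: Rgs5 (8.60), Pamr1 (2.81), Lrrn4cl (2.75), Adgrd1 (2.69), Aebp1 (2.64), Fbn1 (2.57), Pla1a (2.54), Cd248 (2.49), Loxl1 (2.45), Ccl11 (2.31), Tek (2.30), Apod (2.16), Fbln2 (2.15), Fbln5 (2.12), Fstl1 (1.88), Lum (1.87), Dcn (1.70), Pdgfra (1.65) and Emilin1 (1.42). The value of Rgs5 depends on the prior count, since its young RCAM libraries held no count. Other genes more positive in RCAM were Pdk4 (4.95), Spp1 (3.93), Id3 (2.34), Nr1d1 (2.34), Syngr1 (2.12), Fabp4 (1.98), Cebpb (1.98), Itgb5 (1.27), Cd63 (1.25) and Axl (0.95). More negative in RCAM were Ighm (-3.95), Slfn1 (-2.09), Cd2 (-2.01), Npr1 (-1.65), Iigp1 (-1.60), Colec12 (-1.42), Gbp7 (-1.34), F13a1 (-1.20), Prkca (-1.12), H2-DMb2 (-1.12), Mrc1 (-1.04), Gbp3 (-1.03), Aff3 (-1.02), Arntl (-0.98), Irgm2 (-0.90) and Clock (-0.81).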

How the results depend on the processing

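RLE factors gave 518 higher and 207 lower genes, limma-voom 513 and 230. DESeq2 called more: 931 higher, 498 lower, 453 and 256 kept, and 2264 genes whose age difference differed from that in whole capsule. Without a filter the kept lower genes were 66, and with all 6 groups in 1 fit the lower genes were 114, the kept lower genes 13 and the genes differing from whole capsule 2204. Without aged replicates 3 and 4 the counts were 172 higher, 51 lower and 101 differing from whole capsule; without aged replicates 1 and 2 they were 411, 51 and 458. The cause of these shifts was not tested, other than that pairs left out give fewer samples. Leaving out 1 library gave 340 to 497 higher, 98 to 153 lower, 31 to 169 kept higher, 3 to 46 kept lower and 282 to 1594 differing genes; where 1 aged library was left, it was assumed to vary like the young. Higher genes made up 71.3% of calls, 84.5% with all 6 groups in 1 fit and 89% without aged replicates 1 and 2.

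Deviations of same-numbered young and aged libraries from their group means correlated at -0.246, -0.066, -0.151 and -0.175, and no library correlated best with its own number. Whether same-numbered libraries shared a preparation is not stated in the labels and was not tested. With a replicate block there were 280 higher and 56 lower genes, 10 and 1 of them kept, and 1373 genes differing from whole capsule. Of 94 named genes called, 93 stayed with RLE factors, 92 without a filter, 85 with limma-voom, 68 with the block and 74 with all 6 groups; DESeq2 kept all of the 93 it gave a value for, and none changed sign in any of these or in a reduced set of libraries. Depth sets a limit for genes near 0 in the young libraries (Jchain, Mzb1, Rgs5), whose folds rest on few or no counts.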

Other observations

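In other gene groups some members were called in the aged RCAM libraries, where 3.43% of all genes tested were higher and 1.38% lower (1.07% and 0.318% without aged replicates 3 and 4). Of 23 complement genes 5 rose (21.7%), none fell and 2 of those that rose were kept without aged replicates 3 and 4 (median 0.22). Of 18 growth factor genes 6 rose (33.3%), with 1 kept (median 0.52, and 0.32 without the pair). Of 20 matrix proteinases and their inhibitors 6 rose (30%, all on the tissue side) and 1 fell, with 1 kept (median 0.88, and 0.53 without the pair). Of 24 genes of the BMP, TGF-beta and Id group 4 rose (16.7%) and 1 fell, with 3 kept, and of 23 monocyte and recruited myeloid genes 5 rose (21.7%) and 2 fell (8.7%), with 3 kept. The kidney-type macrophage list, named for its marker Cx3cr1, had 4 of 12 genes higher (33.3%) and none lower (median 0.55), of which 1 was kept (Trem2). Of the genes that rose, Trem2, Mmp12 and Cd9 are also on the lipid-associated list, so these lists are not separate observations. Of the genes that rose, 4 of 5 complement, 3 of 6 growth factor and 3 of 5 monocyte genes were on the tissue side. So were 2 of 4 of the BMP, TGF-beta and Id group and 2 of 4 of the kidney-type list. The part of other capsule cells in these rises was not tested.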
